A study of Mus musculus with 6 samples.

Results

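The genes followed here are Parp9, Dtx3l, Parp14, Parp10, Parp11, Parp12, Parp1 and Parp2, 8 of the 18227 genes in the deposited expression table, picked by symbol. The set joins PARP enzymes with the ubiquitin ligase Dtx3l: Parp9, Dtx3l and Parp14 lie on chromosome 16 within 5 Mb of Muc13, and the other members lie on other chromosomes. They were chosen with the knockout-to-wild-type values of these libraries known, so those values are given as a description, without a test. The libraries come from corneas of male C57BL/6 mice aged 6 weeks, 3 from Muc13-/- mice (KO 1 to 3) and 3 from wild-type mice (WT 1 to 3); the KO group is labelled as a knockout of Muc13, a cell-surface mucin of epithelia, and the labels name no treatment for either group. The labels do not say whether a sample is 1 mouse or a pool, whether the controls were littermates, or how the knockout was made, and p-values measure the spread between these samples.

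PARP enzymes use NAD to attach ADP-ribose to proteins and nucleic acids. Parp1 and Parp2 bind broken DNA and build ADP-ribose chains that gather repair proteins. Parp9, Parp10, Parp11, Parp12 and Parp14 are linked to interferon: they attach single ADP-ribose units or read them through macrodomains, and act in antiviral defence. Parp9 has little activity alone and works as a partner of Dtx3l, and in human cells the genes of this pair are driven by a shared promoter that responds to interferon gamma.

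Total expected counts ran from 14068882 to 15480348 per library. The libraries differed in marker genes of tissues beside the cornea. The 21 retina genes summed to 24606 to 42759 CPM (counts scaled to library size, here with TMM factors) in KO and to 85.2 to 27874 CPM in WT, with the highest WT value in WT 3. The 13 corneal epithelium genes, Krt12 among them, summed to 6586 to 34544 CPM in KO and 27681 to 113940 CPM in WT. None of these was at 0 in all 6 libraries, and in KO 3 the sum was the lowest of the 6. The 11 skeletal muscle genes summed to 86.9 to 843 CPM in KO and to 3746, 2870 and 288 CPM in WT 1 to 3, with 11 of 11 below 0 (median log2 fold change −2.40), and the 12 lens genes ran from 13.5 CPM in WT 1 to 74091 CPM in KO 2. For Muc13 itself, KO 1 to 3 had 9, 4 and 2 counts against 18, 21 and 9 for WT 1 to 3; it did not pass the filter on low counts, and its groups overlapped at KO 1 (0.597 CPM) and WT 3 (0.561 CPM). These counts alone do not separate the genotypes, so KO and WT are used as the labels give them, and each direction below rests on the labels.

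Parp9 and Dtx3l lie head to head, which is why the start region between them is shown. On GRCm38 (GENCODE M21), Dtx3l (ENSMUSG00000049502) spans 35926511 to 35939151 on the minus strand of chromosome 16 and Parp9 (ENSMUSG00000022906) spans 35938470 to 35972605 on the plus strand. Their annotated spans overlap by 682 bases. Parp14 (ENSMUSG00000034422), on the minus strand from 35832874 to 35871544, is 54.97 kb from Dtx3l, and the Parp14 end nearer to Muc13 is 2.01 Mb from that gene. The RefSeq start region of Dtx3l at chr16:35938978-35939277 (GRCm38.p6, minus strand, 250 bases before to 50 after the start) holds the annotated starts of 4 of the 7 Parp9 transcripts. The start region of Parp12 at chr6:39118300-39118599 (minus strand) belongs to a low-in-KO member away from chromosome 16. That of Parp11 at chr6:127446590-127446889 (plus strand) belongs to a member with nearly equal groups. Capitals mark matches to the core of the interferon-stimulated response element (GAAA, any 2 bases, GAAA) or the gamma-activated sequence (TTCNNNGAA), read on both strands.
Dtx3l: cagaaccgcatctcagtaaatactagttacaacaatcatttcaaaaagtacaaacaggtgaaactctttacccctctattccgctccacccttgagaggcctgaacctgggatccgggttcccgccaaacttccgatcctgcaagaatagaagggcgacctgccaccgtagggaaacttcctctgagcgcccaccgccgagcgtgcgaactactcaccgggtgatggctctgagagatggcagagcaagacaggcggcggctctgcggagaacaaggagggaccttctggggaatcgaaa
Parp12: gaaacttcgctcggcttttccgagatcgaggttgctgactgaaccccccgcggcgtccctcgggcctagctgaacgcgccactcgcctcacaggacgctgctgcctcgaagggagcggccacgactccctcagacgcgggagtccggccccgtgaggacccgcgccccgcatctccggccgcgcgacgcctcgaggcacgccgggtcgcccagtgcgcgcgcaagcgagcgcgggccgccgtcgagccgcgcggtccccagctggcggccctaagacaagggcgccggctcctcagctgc
Parp11: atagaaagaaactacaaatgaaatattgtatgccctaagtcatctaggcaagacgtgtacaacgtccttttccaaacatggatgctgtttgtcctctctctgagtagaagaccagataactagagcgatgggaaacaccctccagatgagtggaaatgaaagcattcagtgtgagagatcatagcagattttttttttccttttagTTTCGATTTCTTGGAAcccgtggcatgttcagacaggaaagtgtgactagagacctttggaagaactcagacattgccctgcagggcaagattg

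Of the 8 members, 5 had a RefSeq start region (Dtx3l, Parp12, Parp11, Parp1 and Parp2), and Parp11 had a further one. Only the Parp11 region printed above held a match among these 6. Its response-element core lies 44 to 35 bases before the start on the minus strand, and the gamma-activated sequence, 37 to 29 bases before the start, shares letters with it. The response-element core occurs in 3.44% of all 32851 regions of 300 bases and in 25 of 61 regions (41.0%) of the interferon-response list. The gamma-activated sequence occurs in 8.30% of all regions and in 14 of those 61. A match is a run of letters, not a shown binding site. For Dtx3l and Parp12, whose windows are 54.3% and 73.7% G and C, no match says only that these letters are not in these windows.

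Parp9, Dtx3l and Parp14 were each lower in all 3 KO libraries than in any WT library, a pattern that 5.51% of all 14983 tested genes had. Parp9 was at 37.4, 31.1 and 25.0 CPM in KO 1 to 3 and at 108.5, 122.9 and 59.0 CPM in WT 1 to 3. The KO values lay close together, and WT 3 lay between them and the other WT libraries. The means were 31.2 ± 6.22 CPM in KO and 96.8 ± 33.5 CPM in WT (SD, n = 3 each), a log2 fold change of −1.64 (SE 0.331).

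Dtx3l, the ubiquitin ligase that pairs with Parp9, was at 35.7, 26.3 and 10.5 CPM in KO 1 to 3 and at 67.7, 94.995 and 44.6 CPM in WT 1 to 3. The groups did not overlap, and KO 3 was the lowest library by a wide margin. Its means were 24.2 ± 12.7 and 69.1 ± 25.2 CPM (log2 fold change −1.51, SE 0.519). Leaving out KO 3 gave −1.15 and leaving out KO 1 gave −1.91. The CPM of Parp9 was 1.05, 1.18 and 2.37 times that of Dtx3l in KO 1 to 3 and 1.603, 1.29 and 1.32 times in WT 1 to 3, so KO 3 had the highest ratio of the 6. KO 3 also had the lowest sum of corneal epithelium genes, 6586 CPM, and the part of tissue content in the Dtx3l value was not tested.

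Parp14, a large macrodomain protein known as a cofactor of the transcription factor Stat6, was at 25.7, 32.02 and 26.9 CPM in KO 1 to 3. In WT 1 to 3 it was at 94.4, 121.2 and 59.0 CPM. Here the KO libraries were tighter than for Parp9 or Dtx3l, at 28.2 ± 3.34 CPM against 91.5 ± 31.2 CPM (log2 fold change −1.70, SE 0.297). The WT mean was 3.24 times the KO mean for Parp14, 3.11 times for Parp9 and 2.85 times for Dtx3l.

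**Figure D1:**
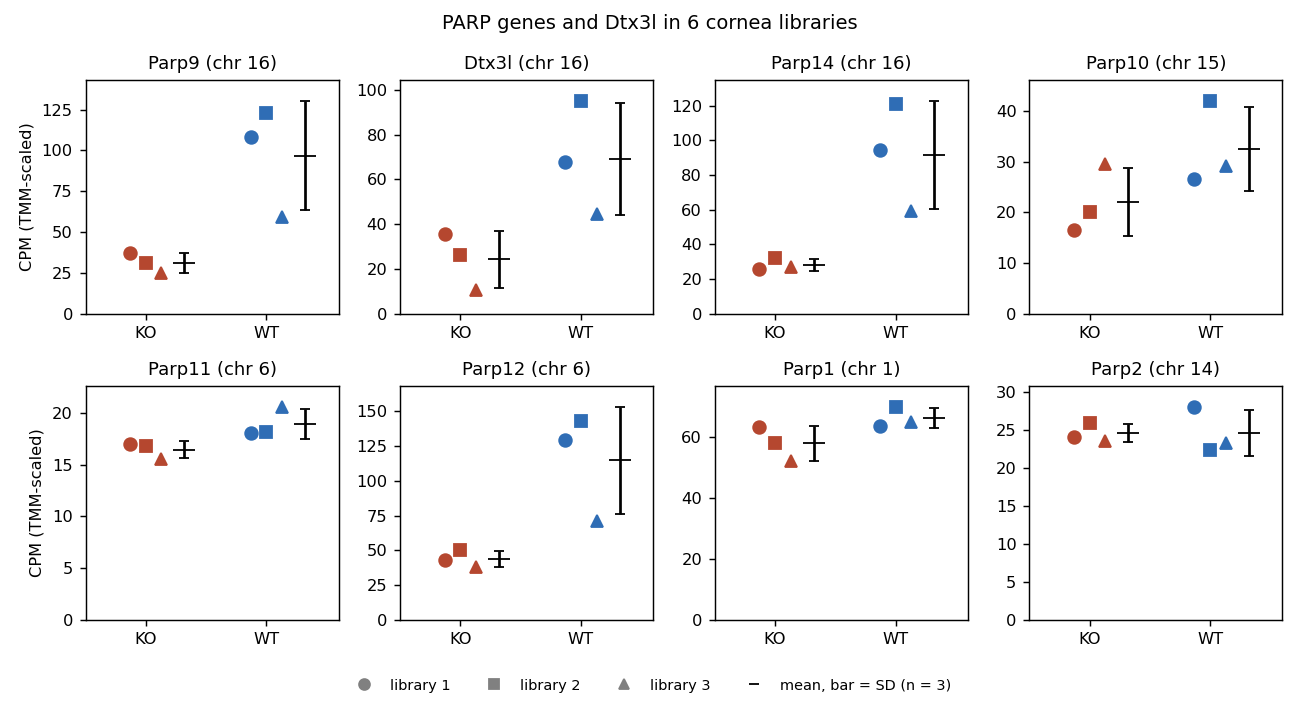
Each panel plots 1 gene on a linear axis from 0 in TMM-scaled CPM, with a point per library (KO red, WT blue, marker shape for library number) and the mean with SD (n = 3) beside each group. For Parp9, Dtx3l, Parp14 and Parp12 every KO library lies below every WT library, and WT 3 is the lowest WT library. Among these the gap is narrowest for Dtx3l, with WT 3 at 1.25 times the highest KO library. Parp1, Parp2 and Parp11 lie nearly level.

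Parp12, on chromosome 6, was the member of the other chromosomes with the widest gap between groups. This zinc finger PARP, which restrains viral protein synthesis, was at 43.4, 49.99 and 38.3 CPM in KO 1 to 3 and at 129.7, 143.4 and 71.1 CPM in WT 1 to 3. The order of the WT libraries was that of Parp9 and Parp14, and no KO library reached WT 3. The log2 fold change was −1.39 (SE 0.304), and the WT mean was 2.61 times the KO mean.

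Parp10, on chromosome 15, attaches single ADP-ribose units to its targets. It was at 16.5, 20.1 and 29.5 CPM in KO 1 to 3 and at 26.6, 42.0 and 29.1 CPM in WT 1 to 3. KO 3 lay above WT 1 and WT 3, so the groups overlapped (log2 fold change −0.56, SE 0.304). Leaving out 1 library at a time moved this value between −0.83, without KO 3, and −0.34, without WT 2. The annotated span of Parp10 overlaps that of Plec by 1401 bases on the same strand.

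Parp11, also on chromosome 6 and linked in human cells to the turnover of the type I interferon receptor, was at 17.0, 16.8 and 15.5 CPM in KO and 18.05, 18.2 and 20.6 CPM in WT. The ranges did not overlap, but KO 1 and WT 1 lay close to each other, and the log2 fold change was −0.20 (SE 0.173). With scaling by library size alone it was −0.04. Parp10, Parp11 and Parp12 thus ran from −1.39 to −0.20, with a median of −0.56.

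The DNA-break sensors had log2 fold changes near 0. Parp1, on chromosome 1, was at 63.3, 58.1 and 52.0 CPM in KO 1 to 3 and at 63.6, 69.7 and 65.0 CPM in WT 1 to 3 (log2 fold change −0.19, SE 0.143). KO 1 and WT 1 nearly touched, and with scaling by library size alone the value was −0.03. Parp2, on chromosome 14, was at 24.1, 25.9 and 23.6 CPM in KO and 28.0, 22.4 and 23.3 CPM in WT, with overlapping groups. Its log2 fold change was −0.0016 (SE 0.168), and it was 0.17 with scaling by library size alone, so its sign depends on the scaling.

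Over all 14983 genes tested, edgeR's quasi-likelihood test called 0 at an adjusted p under 0.05 (0% of genes; smallest adjusted p 0.501). At an unadjusted p under 0.05 edgeR had 656 and DESeq2's Wald test had 1530. At an adjusted p under 0.05 the Wald test called 69. Without WT 3, edgeR called 5166 genes (3205 higher, 1961 lower), and without any other single library it called 0. All 8 members passed the filter on low counts, with 171 to 2018 counts per library, and 6 of them were lower in every KO library than in every WT library. Among all genes tested 5.51% had that pattern and 4.71% had the opposite one. With scaling by library size alone 4 members had the pattern (Parp9, Dtx3l, Parp14 and Parp12; 5.15% of all genes), Parp1 and Parp11 overlapped, and Parp2 was higher in every KO library (4.39% of all genes). Because the members were chosen with these values known, nothing is read from the comparison of those shares. No member had counts that were not whole, the sign of reads divided between similar genes. Whether counting used strand was not given in the sources used here, so how reads in the 682 bases shared by Parp9 and Dtx3l were assigned is not known.

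In TMM-scaled CPM, WT 1 and WT 2 stood apart from WT 3 in the members that were low in KO. Their mean was 1.96 times the WT 3 value for Parp9, 1.82 for Dtx3l, 1.83 for Parp14 and 1.92 for Parp12. It was 1.18 times for Parp10, 0.881 for Parp11, 1.03 for Parp1 and 1.08 for Parp2. The split depends on the scale: in the deposited TPM, WT 1 lay nearer to WT 3 than to WT 2. There Dtx3l was at 12.73, 23.43 and 13.87 TPM in WT 1 to 3, and Parp14 at 12.32, 20.94 and 12.63 TPM. Parp9 was at 38.03, 57.2 and 33.42 TPM, and Parp12 at 40.96, 59.95 and 36.86 TPM. Against WT 3 alone, the wild-type library with retina RNA at the KO level, the log2 fold changes were −0.92 for Parp9, −0.89 for Dtx3l, −1.06 for Parp14 and −0.69 for Parp12. These are values without spread between WT samples. Parp10 was then at −0.39, Parp11 at −0.32, Parp1 at −0.17 and Parp2 at 0.08. The level of Parp14 in WT 3 was 1.84 times that of the highest KO library, that of Parp9 1.58 times, that of Parp12 1.42 times and that of Dtx3l 1.25 times. In bulk tissue, fewer cells of a type and less RNA per cell cannot be told apart.

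The genes beside Parp9, Dtx3l and Parp14 on chromosome 16 had log2 fold changes nearer to 0. Kpna1, a nuclear import adaptor that begins 6.14 kb beyond Parp9, was at 69.6, 67.2 and 59.6 CPM in KO 1 to 3 and at 65.5, 56.6 and 62.0 CPM in WT 1 to 3. Its groups overlapped, with a log2 fold change of 0.09 (SE 0.144; adjusted p = 0.677, edgeR). Hspbap1, 4.40 kb from Parp14 on the other flank, was at 9.55, 9.12 and 6.04 CPM in KO and 17.6, 12.5 and 8.04 CPM in WT, with a log2 fold change of −0.63 (SE 0.383; adjusted p = 0.501, edgeR). WT 3 lay below KO 1 and KO 2 for that gene.

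Across the 5 Mb on each side of Muc13, 112 other genes of the table were annotated and 90 passed the filter. Their median log2 fold change was −0.07, against 0.02 over all genes tested, with 49 below 0 and 41 above. With edgeR 0 passed the adjusted threshold and 3 were at an unadjusted p under 0.05, beside 656 of all 14983 genes. Of the 90, 5 were lower in every KO library (5.56%, beside 5.51% of all genes) and 1 was higher. The 5 genes with the smallest p below 0 were the sorting nexin Snx4 (−0.69), the Arf GTPase-activating protein Acap2 (−0.71), Hacd2 (−1.26), an enzyme of long fatty acid synthesis, Fam162a (−0.85) and Mb21d2 (−0.59). Above 0 they were Lrch3 (0.34), Pigz (1.11), an enzyme of lipid anchors, Atp13a3 (0.30), Wdr5b (0.47) and Plaat1 (0.71). None of these had an adjusted p under 0.501.

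The cystatin Stfa3 (−1.77) was the 1 neighbour with a value below that of Parp14, and Stfa3 and Fbxo40 (−1.57) were the 2 below that of Dtx3l. Both had overlapping groups, with SEs of 0.890 and 1.09 against 0.297 for Parp14; they were named after their values were seen. Within 1 Mb of the stretch from Parp14 to Parp9, 23 other genes were tested, with a median of −0.63, 13 below 0 and 0 without overlap in either direction. That median was −0.03 against WT 3 alone, where the median of Parp9, Dtx3l and Parp14 was −0.92. Adprh, an ADP-ribose hydrolase gene that starts 4.65 Mb from the Muc13 start and was named for its place after its values were seen, was at 58.8, 58.2 and 60.0 CPM in KO and 50.6, 56.3 and 59.2 CPM in WT (log2 fold change 0.09).

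**Figure D2:**
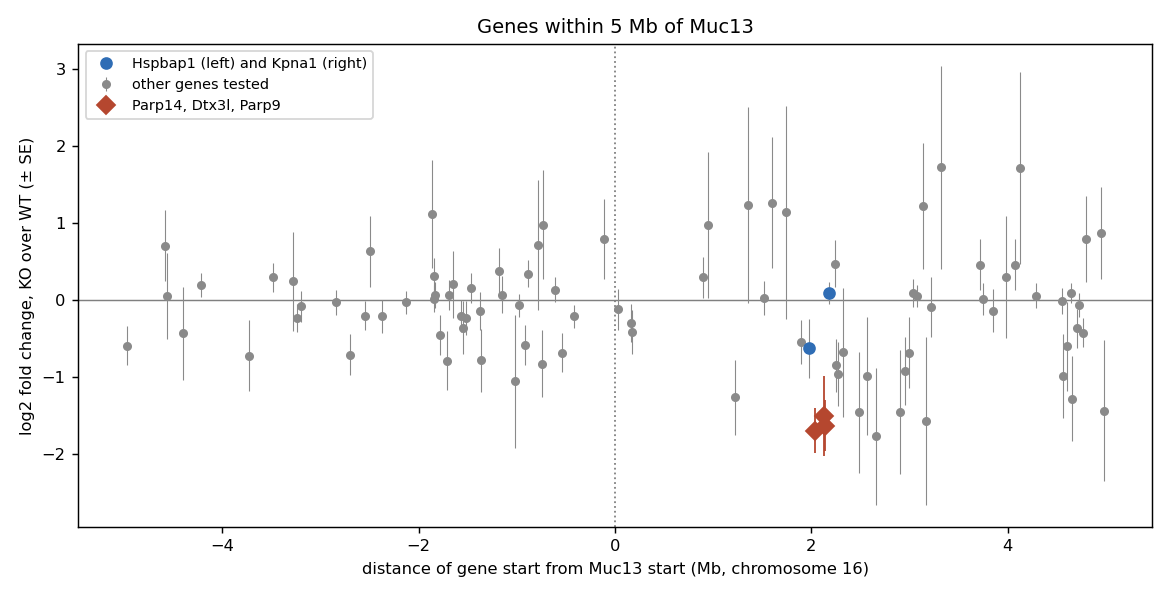
Each point is a tested gene within 5 Mb of Muc13, with the distance of its start from the Muc13 start in Mb on the x axis and its log2 fold change, KO over WT, with SE on the y axis. Parp14, Dtx3l and Parp9 (red) lie at −1.51 to −1.70 with SEs of 0.297 to 0.519, between Hspbap1 at −0.63 and Kpna1 at 0.09 (blue).

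The remaining 374 tested genes of chromosome 16 had a median log2 fold change of 0.01. One of them, Rtp4, a receptor-transport protein that interferon induces, is the only tested gene of the interferon-response list on that chromosome and starts 10.3 Mb from Muc13 on the side away from Parp14 (−10.27 Mb). It was at 6.90, 9.66 and 15.2 CPM in KO 1 to 3 and at 48.9, 70.4 and 44.9 CPM in WT 1 to 3. The lowest WT library lay well above the highest KO library (log2 fold change −2.37, SE 0.366; adjusted p = 0.501, edgeR). None of the 90 neighbours within 5 Mb belongs to the interferon-response or immune cell lists, which do not hold every immune gene.

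Interferon-response genes, all but Rtp4 on other chromosomes, had values of the size seen for Parp9, Dtx3l, Parp14 and Parp12. The list holds 57 measured genes and no member of the set; its median log2 fold change was −1.58, 56 lay below 0, and 47 were lower in every KO library (82.5%, beside 5.51% of all genes). Without Rtp4 the median was −1.56 and 46 of 56 were lower in every KO library (82.1%). The list was chosen with earlier results of these data known, so these shares are a description. Of the 57, 11 have counts that are not whole. Adjusted over all genes, 0 of the list passed with edgeR. At an unadjusted p under 0.05 with edgeR there were 46 of the 57, beside 656 of all 14983 genes. Irf7, which switches on interferon genes, was at −1.58, the RNA sensor Dhx58 at −1.81 and the ubiquitin-like modifier Isg15 at −2.14. Oas3 was at −2.67, Iigp1 at −2.90, Slfn2 at −2.05, Ddx60 at −2.09 and Ifit1 at −2.41. Summed over the list, KO 1 to 3 had 1451, 1471 and 1879 CPM against 3801, 5049.5 and 3286.5 CPM for WT 1 to 3. Against WT 3 alone the median of the list was −1.15.

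Receptors and signalling factors of the interferon pathway were nearer to 0 than the response genes. The 12 genes had a median of −0.51, and 1 was lower and 1 higher in every KO library (8.33% each, beside 5.51% and 4.71% of all genes). The receptor chains Ifngr1 and Ifngr2 were at −0.82 (SE 0.340) and −0.62 (SE 0.256), with overlapping groups. Socs3, a feedback inhibitor of cytokine signalling, was higher, at 12.3, 8.24 and 15.5 CPM in KO and 1.48, 2.91 and 6.17 CPM in WT (log2 fold change 1.77, SE 0.603). Socs1, of the same family and named after its values were seen, was the lower one (log2 fold change −0.80, SE 0.439). It was at 1.19, 1.76 and 2.65 CPM in KO and 3.42, 3.62 and 2.74 CPM in WT. Of the 12, 0 passed the adjusted threshold with edgeR and 1 was at an unadjusted p under 0.05 (656 of all 14983 genes).

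Markers of immune cells had medians above 0. The 14 macrophage and dendritic cell genes summed to 231 to 305 CPM in KO and 160 to 308 CPM in WT, with a median of 0.40 and 3 of 13 tested genes below 0. Of those 13, 3 were higher in every KO library (23.1%, beside 4.71% of all genes) and 0 were lower. The 12 lymphocyte and plasmacytoid cell genes summed to 2.90 to 5.30 CPM in KO and 0.467 to 3.24 CPM in WT, with 1 of 2 tested genes higher in every KO library (median 1.36), and no marker of either list was at 0 in all 6 libraries. By contrast, all 13 corneal epithelium genes had a log2 fold change below 0, with a median of −1.53 and 0 without overlap in either direction. The part of epithelial and muscle content in the values of Parp9, Dtx3l, Parp14 and Parp12 was not tested.

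**Figure D3:**
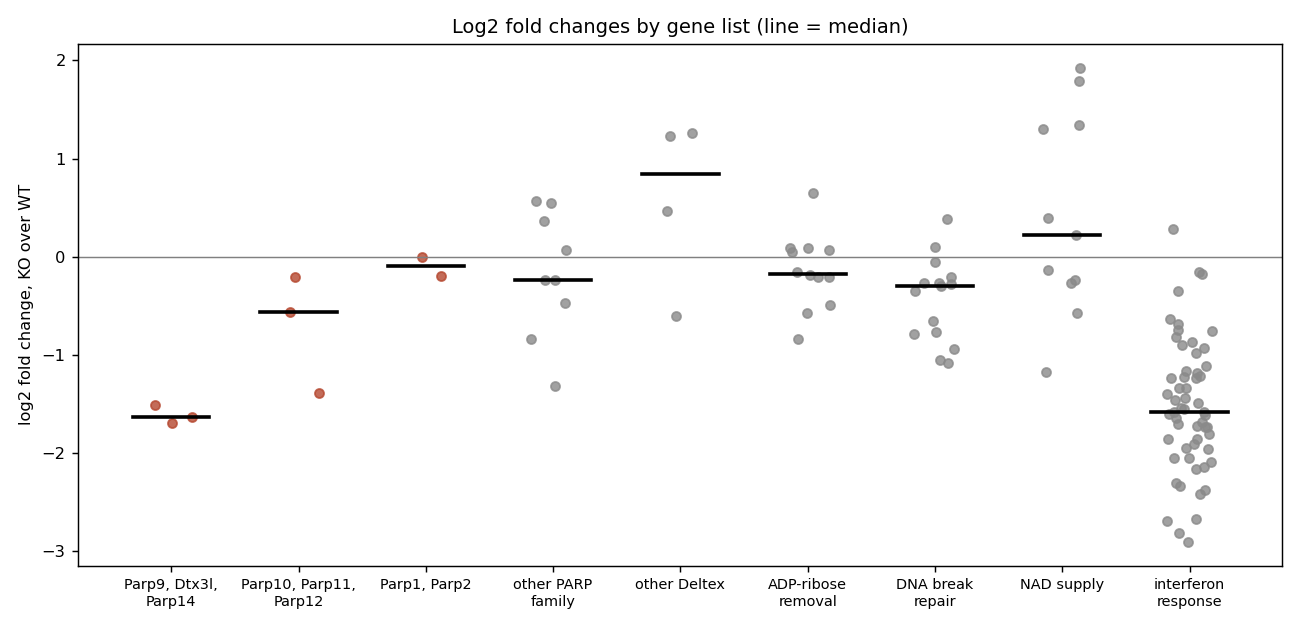
Each point is the log2 fold change, KO over WT, of 1 tested gene, grouped by list along the x axis, with a line at the list median; members of the set are red. Parp9, Dtx3l and Parp14 (median −1.64) lie at the level of the interferon-response list (−1.58), and the medians of ADP-ribose removal, DNA break repair and NAD supply are −0.17, −0.30 and 0.22. The NAD supply list also holds Sarm1, Bst1 and Cd38, which use up NAD.

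Among the 9 other genes of the PARP family, Zc3hav1 was the one whose values most resembled those of Parp9. Zc3hav1, also called PARP13 or ZAP, binds viral RNA and lies on chromosome 6. It was at 37.5, 37.5 and 24.4 CPM in KO 1 to 3 and at 100.1, 103.4 and 44.6 CPM in WT 1 to 3 (log2 fold change −1.32, SE 0.384; adjusted p = 0.501, edgeR). Against WT 3 alone it was at −0.43, and the mean of WT 1 and WT 2 was 2.28 times WT 3. Parp16, a PARP of the endoplasmic reticulum, was at −0.83 (SE 0.349), with WT 3 at 16.7 CPM just above KO 2 at 16.5 CPM. Parp6 was at 0.55 (SE 0.320), with 44.8, 36.1 and 40.4 CPM in KO but 19.8, 21.9 and 41.0 CPM in WT 1 to 3, so that WT 3 was at the KO level. The 9 genes had a median of −0.24. In every KO library 2 were lower (22.2%, beside 5.51% of all genes) and 0 higher. With edgeR 0 passed the adjusted threshold and 1 was at an unadjusted p under 0.05, beside 656 of all 14983 genes.

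**Figure D4:**
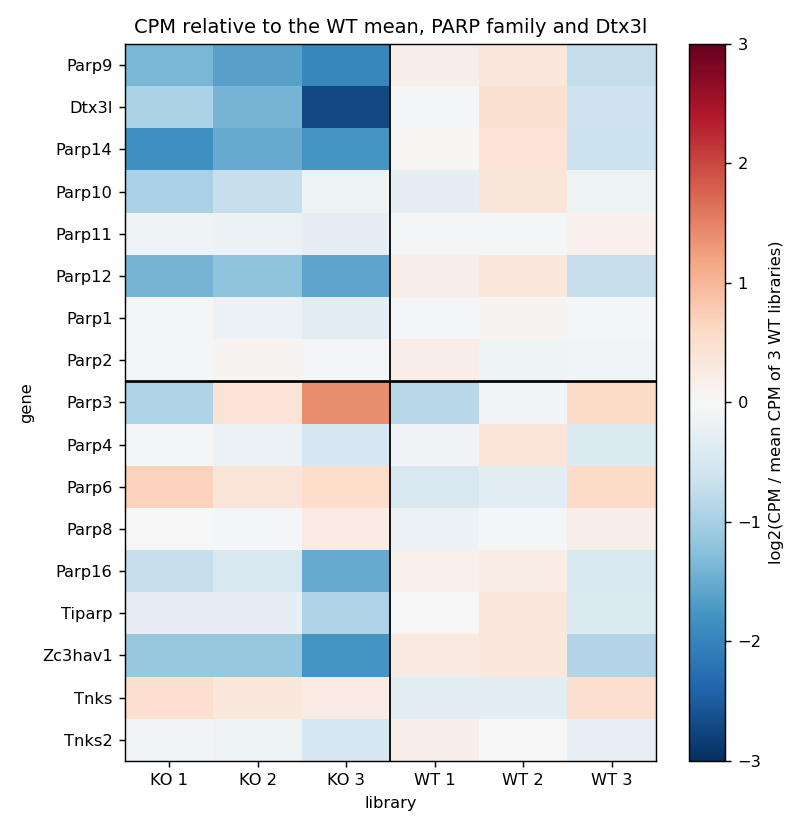
Colour gives log2 of CPM divided by the mean CPM of the 3 WT libraries, with genes in rows (the 8 members above the line, the other PARP family below) and libraries in columns. Parp9, Dtx3l, Parp14, Parp12 and Zc3hav1 are blue in all KO libraries and paler blue in WT 3, while Parp6 and Tnks have WT 3 at the colour of the KO libraries.

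Per transcript length, the interferon-linked members were among both the highest and the lowest of the family in wild-type cornea. On the TPM scale of the deposited table, Parp12 (45.9 ± 12.3 TPM) and Parp9 (42.9 ± 12.6 TPM) led the 17 genes in WT, followed by the tankyrase Tnks2 (40.5 ± 3.18 TPM). These 3 did not differ beyond their spread. Zc3hav1 (24.4 ± 7.48), Parp1 (23.0 ± 5.83), Parp6 (19.6 ± 11.3), Tiparp (19.3 ± 5.27) and Parp2 (18.5 ± 3.20 TPM) came next. Dtx3l followed at 16.7 ± 5.88 TPM, Parp3 at 16.4 ± 12.6, Parp14 at 15.3 ± 4.89, Parp10 at 14.03 ± 4.37 and, after Parp16, Parp4, Parp8 and Tnks, Parp11 last at 7.64 ± 2.63 TPM (SD, n = 3). From Zc3hav1 down, neighbours in this order differed by less than their SDs.

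In KO the order was led by Tnks2 (42.15 ± 11.1 TPM) and Parp6 (29.8 ± 8.23 TPM). Parp3 came 3rd, at 25.0 ± 17.7 TPM, with 11.55, 18.56 and 45.02 TPM in KO 1 to 3. Parp1 was at 23.8 ± 3.91 TPM, Parp2 at 22.0 ± 2.01 TPM and Parp12 at 21.3 ± 2.31 TPM, and these 3 lay within each other's spread. Parp9 came 7th, at 16.6 ± 4.84 TPM, Dtx3l 16th, at 7.13 ± 4.32 TPM, and Parp14 last of the 17, at 5.63 ± 0.135 TPM. Within libraries, the CPM of Parp9 was 0.591, 0.536 and 0.480 of that of Parp1 in KO 1 to 3, and 1.71, 1.76 and 0.909 of it in WT 1 to 3.

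**Figure D5:**
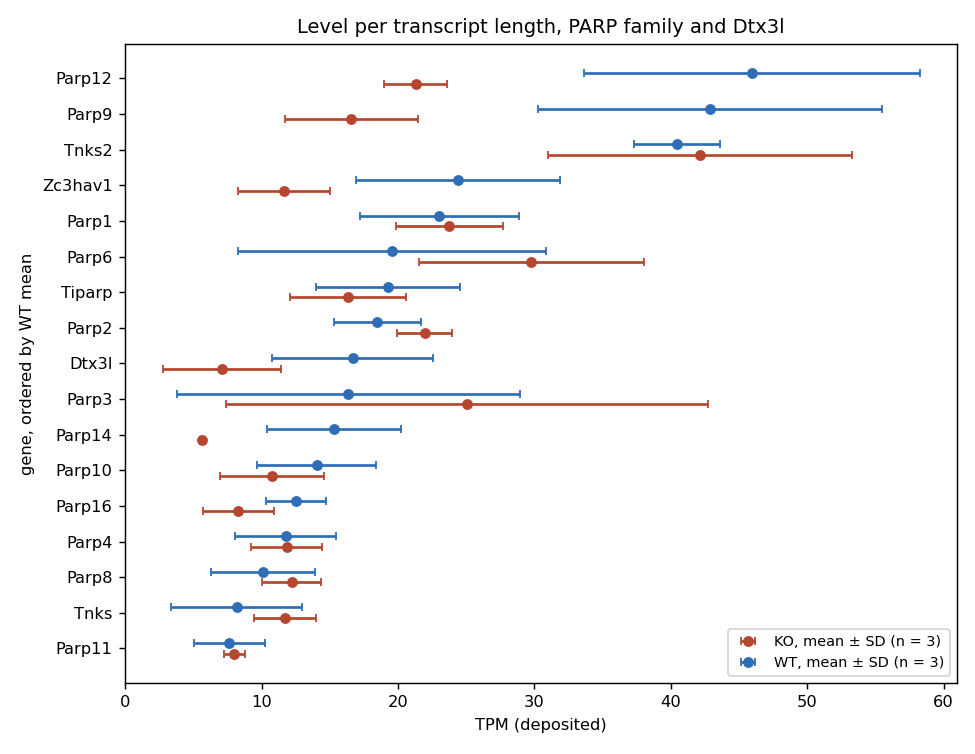
Points give the mean deposited TPM and bars the SD (n = 3) of each PARP family gene and Dtx3l in KO (red) and WT (blue), in the order of the WT means. Parp12 and Parp9 lead in WT at 45.9 and 42.9 TPM and stand at 21.3 and 16.6 TPM in KO.

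Likeness of pattern to Parp9 was measured over all chromosomes. The measure was the mean absolute difference of log2 CPM, each gene centred on its own mean, over the 6 libraries, among 14235 genes. The nearest were the class I molecule H2-T23 (0.0876), the RNA sensor Ifih1 (0.0903) and Oasl2 (0.121), followed by Gbp4, Trim34a, Phf11d, Asf1b, Ddx58, Zc3hav1 and Efcab11 (0.174). Ifih1 was at 19.6, 19.3 and 14.7 CPM in KO 1 to 3 and 71.9, 74.1 and 32.4 CPM in WT 1 to 3. Of these 10, 0 lie on chromosome 16, which holds 3.12% of the genes compared, and 4 are in the interferon-response list, which holds 0.4% of them. That list was chosen with earlier results of these data known, and the 10 by their values. Nothing is read from these shares. H2-T23, Trim34a and Phf11d have counts that are not whole. Parp14 ranked 13th (0.178), Parp12 14th (0.182) and Dtx3l 169th (0.305), while Parp1 was at 0.693 and Parp2 at 0.793. Nearest to Parp1 were Dynlt1c (0.0248), Pwwp2a, Dstyk, Plekha5 and Edrf1, and Parp11 was at 0.0759 from it.

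Other genes of ADP-ribose biology had list medians nearer to 0 than the interferon-response list. Of 12 genes for the removal or breakdown of ADP-ribose, 7 lay below 0 (median −0.17) and 2 were lower in every KO library (16.7%, beside 5.51% of all genes). Those were Parg, which takes apart ADP-ribose chains (−0.49, SE 0.191), and Nudt5, which splits free ADP-ribose (−0.57, SE 0.260); Adprhl1 was at −0.83 (SE 0.582). In the DNA break repair list, 13 of 15 lay below 0 (median −0.30, against 0.02 over all genes) and 3 were lower in every KO library (20%, beside 5.51% of all genes). The endonuclease Apex1 (−1.08, SE 0.387), the polymerase Polb (−0.94, SE 0.341) and the ligase Lig3 (−0.65, SE 0.267) had its smallest p-values. Polb was lower in every KO library, while Apex1 and Lig3 had overlapping groups. Each of those 3 was lower in WT 3 than in WT 1 and WT 2, as the list sum was (315 CPM in WT 3, 512 CPM in WT 1, 422 CPM in WT 2, and 278 to 318 CPM in KO).

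The NAD supply list had a median of 0.22 over 11 tested genes. That list also holds enzymes that use up NAD: Sarm1 (1.30, SE 1.90), Bst1 (1.34, SE 1.12) and Cd38 (−0.14, SE 0.687). Its median is therefore not one of supply genes alone. Naprt, which makes NAD from nicotinic acid, was at −1.17 (SE 0.503, with shared reads), Nmnat3 at −0.57 (SE 0.373) and Qprt, of the route from tryptophan, at 1.79 (SE 0.822). Qprt had few counts and overlapping groups, at 0.729, 0.946 and 3.51 CPM in KO 1 to 3 and 0.311, 0.355 and 0.810 CPM in WT 1 to 3. Among the 4 other Deltex ligases the median was 0.85; Dtx2 was at −0.60 (SE 0.297), Dtx4 at 0.46 (SE 0.573) and Dtx3 at 1.26 (SE 0.819). Dtx3 was at 169.5, 157.6 and 238.7 CPM in KO and at 18.1, 45.3 and 172.4 CPM in WT 1 to 3, the order of retina content among the WT libraries. No gene of these 4 lists passed the adjusted threshold with edgeR (smallest adjusted p 0.501). Genes at an unadjusted p under 0.05 numbered 1 for ADP-ribose removal, 2 for DNA break repair and 0 for the others. Over all 14983 genes there were 656.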

How the data were processed

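RNA was sequenced from 6 cornea samples, 3 per genotype. The authors deposited expected counts (estimated reads per gene, not normalized) and TPM; the submitters' processing notes name GRCm38 (mm10), with aligner, counter and strand setting not given in the sources used here. Expected counts, rounded to whole numbers, were tested in R 4.3.3 with edgeR 4.0.16: TMM, filterByExpr, robust quasi-likelihood test on genotype alone, Benjamini-Hochberg adjustment over 14983 genes, threshold 0.05. CPM are TMM-scaled; log2 CPM used a prior count of 2. SEs were derived from each log2 fold change and its F statistic. DESeq2 1.42.0 and limma 3.58.1 served as alternatives, with other scalings, filters and left-out libraries. The fit was run on simulated counts at the spread of these libraries (square root of common dispersion 0.585) and at a lower spread. Its recovery is not given here, so the 0 genes called are not a measure of how many genes differ. The other 20 value columns were not used.

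The members and all lists were chosen with earlier results of these data known. Coordinates are from GENCODE M21 on GRCm38 (18196 of 18227 genes matched) and sequences from RefSeq on GRCm38.p6. Named genes are the members, the 3 smallest p-values of each list (10 for interferon response), 5 per direction within 5 Mb of Muc13, the flanking genes, and the 10 nearest to Parp9 and 5 nearest to Parp1 in pattern; 1 gene that this rule names is not reported here. Mx1 and Mx2 and a planned comparison of protein sequences were not analysed here. Mean chi-square values of 43.5 to 550.7 per gene between libraries place no pair within sampling noise. At these totals 3 counts are 0.185 to 0.233 CPM.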

Additional observations from a re-analysis of the deposited data

How the results depend on the processing

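Over the alternatives run, 172 of 185 values of medians and single members moved by less than 1 SD between replicates. Against WT 3 alone (3 KO libraries, values only), the median of Parp9, Dtx3l and Parp14 was −0.92, that of the interferon-response list −1.15 and that of the neighbours within 5 Mb 0.0197. The median of the genes within 1 Mb of Parp14 to Parp9, an alternative chosen after seeing the data, was −0.03 there. With scaling by library size alone, which moves the median of all genes from 0.02 to 0.19, the median of Parp1 and Parp2 was 0.0734 and that of the neighbours 0.11; the median of Parp9, Dtx3l and Parp14 was −1.44. The overlap of the groups under that scaling was also looked at for the members, after seeing the data: 4 rather than 6 were lower in every KO library. The count of genes past the threshold was 69 with DESeq2's Wald test (9 higher, 60 lower) and ran from 0 to 5166 with 1 library left out; 5166 came without WT 3, and without each other library it was 0. A window of 2 Mb gave the neighbours a median of −0.01. The response-element core followed by C occurred in 0.819% of all start regions and again in that of Parp11 among those of the members.

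Same-numbered KO and WT libraries correlated at 0.0904, 0.363 and 0.190 in their deviations from group means, and the labels tie no numbers together, so the numbers were not taken as pairs; each KO library correlated best with its own number, but WT 1 correlated best with KO 2 (0.1805). With the replicate block the count of genes past the threshold was 0 (2529 at an unadjusted p under 0.05), the median of Parp9, Dtx3l and Parp14 was −1.62, that of Parp10, Parp11 and Parp12 −0.58, that of Parp1 and Parp2 −0.10, that of the neighbours −0.07 and that of the interferon-response list −1.54.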
